A study of Homo sapiens with 66 samples.

Results

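The interferon regulatory factors (IRFs) IRF1, IRF2, IRF3, IRF4, IRF5, IRF7, and IRF8 were followed across 66 RNA sequencing libraries of THP-1, a human monocytic leukemia cell line. These 7 genes, named as a family and found by Ensembl identifier, were taken from the 57820 genes of the count tables. All cells carried a Cas9 transgene and received 2 gRNAs by nucleofection. In study 1, a STING-deficient line was nucleofected with nontarget gRNA (CTRL) or with gRNAs against GFP, ADAR, hnRNPC, or ADAR+hnRNPC, and total RNA was collected on days 3, 4, and 5, with CTRL cells that had IFN-α from day 3 until collection on day 4 as a further group (16 groups of 3 replicates, 48 libraries). In study 2, a clone with intact STING was nucleofected with CTRL, hnRNPC, ADAR, or ADAR+hnRNPC gRNAs, and total and cytosolic (digitonin-soluble) RNA was collected on day 4, with nuclear/mitochondria-enriched (digitonin-insoluble) RNA of hnRNPC-targeted cells (9 groups of 2 replicates, 18 libraries). STING, an adaptor of DNA sensing that activates IRF3, was thus missing in every group of study 1 including its controls. Targeting was by nucleofection of a pool of cells, so edited and unedited cells were measured together, and a lower level in a bulk sample cannot be told apart from fewer cells with the transcript.

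IRFs are transcription factors that share a DNA-binding domain with a tryptophan repeat and bind GAAA-containing elements of interferon and interferon-stimulated genes. IRF3 is present before infection and is activated by phosphorylation downstream of nucleic acid sensors, whereas IRF7 is made at a low level until type I IFN induces its gene and amplifies the response. IRF1 is an inducible activator, IRF2 competes with it for the same sites, IRF5 acts downstream of Toll-like receptors on cytokine genes, IRF8 with PU.1 maintains the monocyte lineage, and IRF4 is best known in lymphocytes.

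The gRNAs are shown because they define the groups. The study 1 and study 2 gRNAs against HNRNPC lie in exon 3 of its 9 exons, and the study 1 gRNA against ADAR in exon 2 of 15, all within the coding sequence. They were located on GRCh37 at chr14:21702284-21702303, chr14:21702173-21702192, and chr1:154574128-154574146, each on the plus strand and each followed by an NGG motif.
hnRNPC gRNA, study 1: gagattcccaatgaatacac
hnRNPC gRNA, study 2: ctcattaacatactgaacga
ADAR gRNA, study 1: tatatctcgggccttggta
HNRNPC mRNA was lower in every library of study 1 with the gRNA against it (294 to 417 CPM, the counts of a gene scaled to the total of its library, 18 libraries) than in any without it (725 to 869 CPM, 30 libraries). In study 2, where the libraries differ in RNA fraction, HNRNPC mRNA was at 297 to 701 CPM in the 10 libraries with the hnRNPC gRNA and at 581 to 1025 CPM in the 8 without, so the ranges overlapped. ADAR mRNA of study 1 did not separate either, at 344 to 1509 CPM in the 18 libraries with the ADAR gRNA and 364 to 1373 CPM in the 30 without, and ADAR is itself induced by IFN. Gene counts per library ranged from 95107690 to 152829008 in study 1 and from 49666958 to 73873756 in study 2. Marker genes of monocytes were present in every library (6 of 7 passed the filter, and their summed level was 360 to 860 CPM in study 1 and 274 to 620 CPM in study 2), while markers of T cells and epithelial cells summed to at most 0.161 CPM, those of erythroid cells to at most 1.71 CPM, and those of B cells to at most 6.46 CPM. In study 2, CTRL total RNA replicate 2 stood apart from replicate 1 in the nuclear RNA MALAT1 (2723 against 1148 CPM) and the mitochondrial RNA MT-ND1 (156 against 37.0 CPM), and values without it are given beside the comparisons of total RNA.

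Levels in CTRL cells spanned more than 3 orders of magnitude. On day 4 of study 1 and per kilobase of the spliced canonical transcript, the order was IRF8 at 329 ± 4.30 CPM per kb (SD, n = 3), IRF5 at 75.8 ± 3.77, IRF3 at 45.1 ± 1.64, IRF1 at 10.8 ± 1.14, IRF2 at 8.37 ± 0.563, IRF7 at 5.10 ± 1.03, and IRF4 at 0.102 ± 0.0134. The ranges of neighbors in this order did not overlap on day 4, and those of IRF1 (9.32 to 10.1) and IRF2 (8.76 to 9.28) came closest on day 5. IRF8 thus held 69.4% and IRF7 1.07% of the length-scaled mRNA summed over the 7 members. This sum leaves out IRF9, which belongs to the same family. In IFN-α–treated cells the share of IRF7 was 12.02 ± 1.52%, and its level of 68.6 ± 12.2 CPM per kb came next after IRF8 and IRF5, with a range (54.8 to 77.7) that ended just below that of IRF5 (77.8 to 81.2). With ADAR+hnRNPC gRNAs, IRF7 of day 5 ranked first at 186 ± 37.7 CPM per kb (154 to 227), above IRF8 at 142 ± 8.47 (132 to 149), and the shares were 33.0 ± 4.08% for IRF7, 25.5 ± 3.40% for IRF8, and 13.8 ± 1.21% for IRF1.

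Differences between groups of study 1 were tested by edgeR (quasi-likelihood), with p-values adjusted by Benjamini-Hochberg over 13193 genes, and a gene was called (and is said to rise or fall) at a 2-fold change and an adjusted p of at most 0.05. Of the 7 IRF genes, 6 passed the filter on low counts. IRF4 did not and is described below.

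IRF7 had the largest response of the family to IFN-α and to joint targeting. Its level in CTRL cells on day 4 was 11.7, 7.74, and 9.99 CPM in the 3 replicates, and in IFN-α–treated cells it was 141, 149, and 105 CPM. The groups were far apart, and IRF7 rose 13.5-fold (log2 fold change 3.75 ± 0.19 SE, edgeR adjusted p = 1.1e-18). It was the only 1 of the 6 tested members called after IFN-α, against a background of 1.32% of all genes tested. In ADAR+hnRNPC-targeted cells IRF7 measured 9.465, 10.03, and 11.003 CPM on day 3, then 39.3, 33.5, and 54.2 CPM on day 4, and 296, 339, and 437 CPM on day 5. CTRL cells stayed at 6.99 to 11.7 CPM on all days. The difference from CTRL was 0.45 on the log2 scale on day 3 (not called), and IRF7 rose 4.33-fold on day 4 (log2 fold change 2.11 ± 0.18, edgeR adjusted p = 2.77e-12) and 40.2-fold on day 5 (5.33 ± 0.21, edgeR adjusted p = 3.34e-23).

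With each single targeting IRF7 rose close to the threshold on day 5. The 3 replicates were at 20.7, 14.5, and 20.9 CPM with hnRNPC gRNA, at 19.9, 13.6, and 20.6 CPM with ADAR gRNA, and at 9.17, 6.99, and 10.5 CPM in CTRL cells. Both single targetings lay above every CTRL library, and IRF7 rose 2.10-fold with hnRNPC gRNA (log2 fold change 1.07 ± 0.18, edgeR adjusted p = 2.76e-06) and 2.03-fold with ADAR gRNA (1.02 ± 0.18, edgeR adjusted p = 0.000433). GFP-targeted cells of that day also lay above CTRL, at 12.4, 10.9, and 13.2 CPM (log2 difference 0.45, adjusted p = 0.116, not called). With these GFP-targeted cells as the control, the log2 differences were 0.62 for hnRNPC and 0.57 for ADAR, and neither was called. Both calls were also lost without CTRL replicate 2 (0.93 and 0.87) and without replicate 1 or 3 of the targeted group (0.99 and 0.98 for hnRNPC, 0.94 and 0.91 for ADAR). IRF7 was the 1 member called on day 5 for each, where 7.72% of all genes were called with hnRNPC gRNA and 0.273% with ADAR gRNA.

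**Figure D1:**
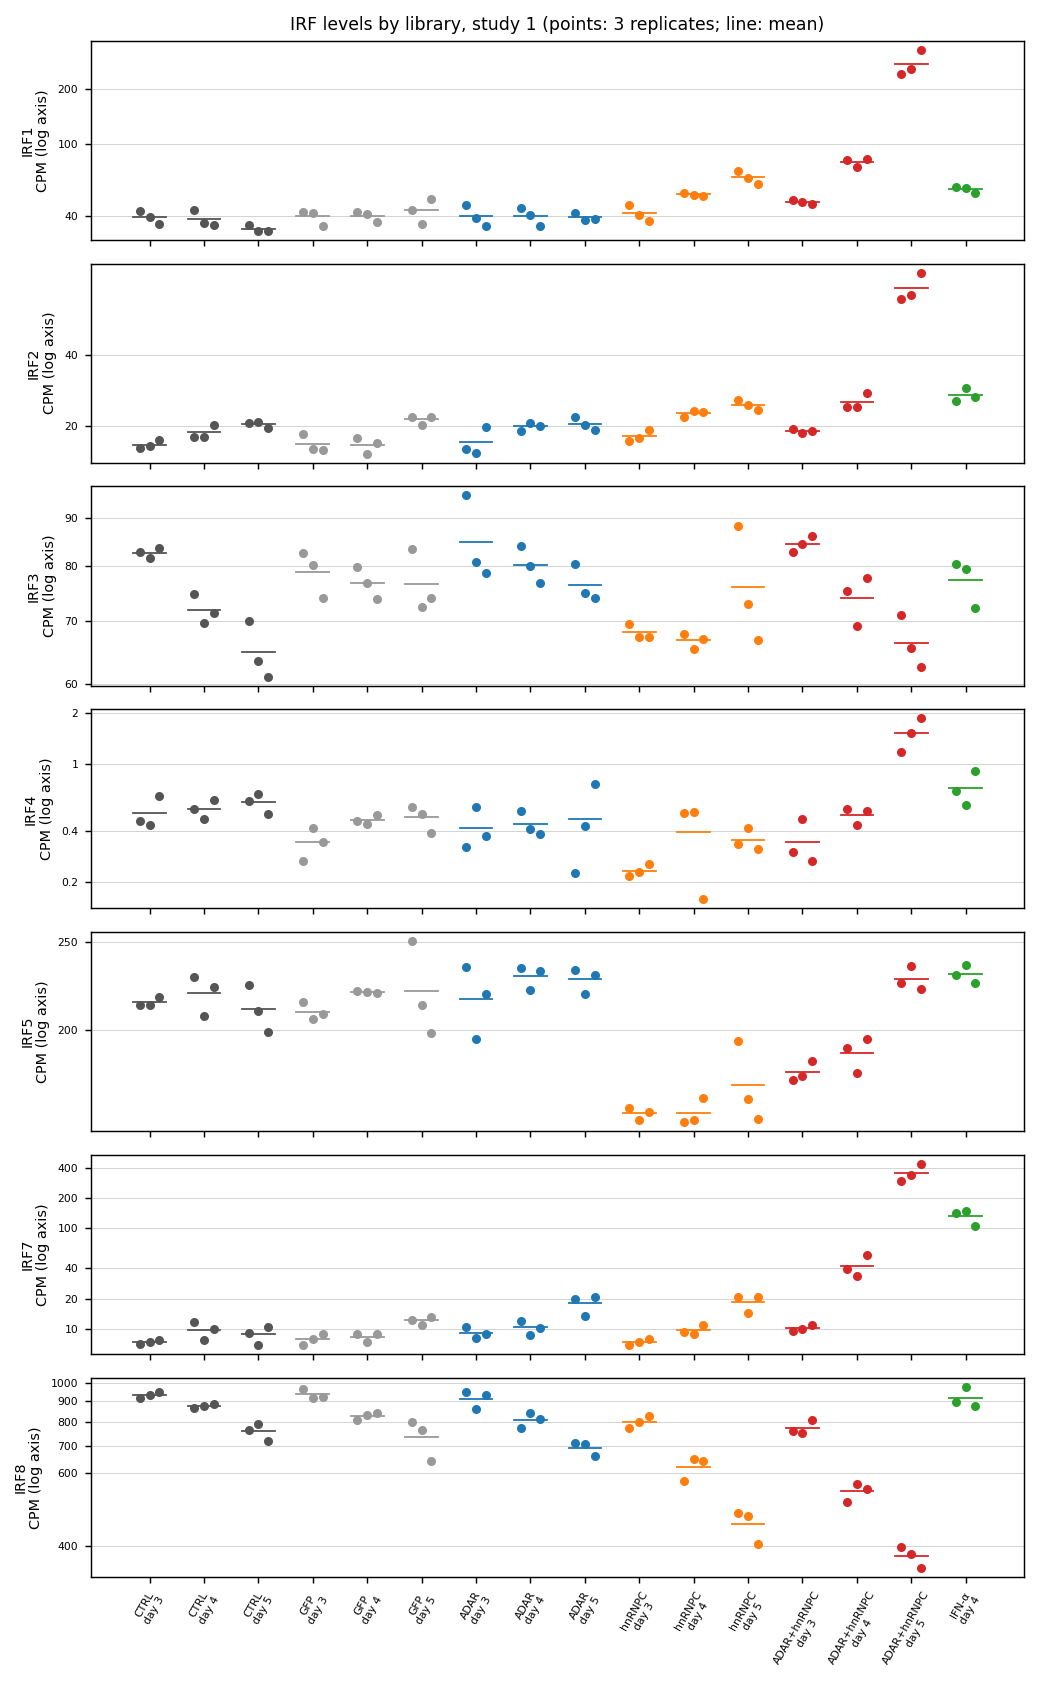
Level of each IRF gene in each of the 48 libraries of study 1 (CPM, log axis, 1 panel per gene), by gRNA and day, with points for the 3 replicates and a line at their mean. IRF7 climbs from 9.46 to 437 CPM over the 3 days of ADAR+hnRNPC targeting and reaches 105 to 149 CPM with IFN-α, IRF1 and IRF2 are highest with ADAR+hnRNPC gRNAs on day 5, and IRF8 is lowest there.

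IRF1 rose with joint targeting and was below 2-fold after IFN-α. On day 5 it measured 35.9, 33.1, and 33.1 CPM in CTRL cells and 241, 259, and 328 CPM in ADAR+hnRNPC-targeted cells. This was an 8.10-fold rise (log2 fold change 3.02 ± 0.11, edgeR adjusted p = 1.36e-23). On day 4 the doubly targeted replicates were at 81.3, 74.1, and 82.7 CPM against 43.1, 36.7, and 35.6 CPM in CTRL cells, and IRF1 rose 2.07-fold (1.05 ± 0.11, edgeR adjusted p = 1.72e-10), a call that was lost with GFP-targeted controls (0.99) and without CTRL replicate 3 (0.99). IFN-α–treated cells were at 58.0, 57.3, and 53.3 CPM, above all CTRL libraries of the day but 1.46-fold apart (log2 difference 0.55 ± 0.11, adjusted p = 0.000253). With hnRNPC gRNA alone, IRF1 was at 53.9, 52.1, and 51.6 CPM on day 4 and at 71.0, 64.7, and 60.3 CPM on day 5, 1.92-fold above CTRL (0.94 ± 0.11, adjusted p = 1.22e-09), just under the fold threshold. With ADAR gRNA alone the day 5 difference was 0.21, less than that of GFP gRNA (0.34).

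IRF2, the competitor of IRF1, also rose with joint targeting on day 5. In ADAR+hnRNPC-targeted cells it measured 19.6, 18.8, and 19.1 CPM on day 3, 24.1, 24.1, and 27.7 CPM on day 4, and 68.2, 71.0, and 88.2 CPM on day 5. CTRL cells of day 5 were at 20.7, 20.9, and 19.8 CPM, and the rise was 3.70-fold (log2 fold change 1.89 ± 0.09, edgeR adjusted p = 3.52e-21). IFN-α–treated cells were 1.44-fold above CTRL (0.52 ± 0.08, adjusted p = 1.31e-05, not called), and the highest value of a single targeting was 0.27 ± 0.08, with hnRNPC gRNA on day 4 (adjusted p = 0.00776, not called).

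IRF8, the most abundant member, went the other way. In CTRL cells it measured 915, 933, and 948 CPM on day 3, 865, 877, and 888 CPM on day 4, and 766, 793, and 722 CPM on day 5. In ADAR+hnRNPC-targeted cells it was at 763, 752, and 811 CPM, then 512, 566, and 550 CPM, and then 398, 382, and 353 CPM. All doubly targeted libraries lay below the CTRL libraries of their day, and on day 5 IRF8 fell 2.01-fold (log2 fold change -1.01 ± 0.07, edgeR adjusted p = 2.8e-16). The value sits at the fold threshold, and the call was lost with DESeq2 (-0.96), with GFP-targeted controls (-0.96), without CTRL replicate 2 (-0.98), and without ADAR+hnRNPC replicate 3 (-0.96). With hnRNPC gRNA alone IRF8 was at 482, 472, and 404 CPM on day 5, below all CTRL libraries but not by 2-fold (-0.75 ± 0.07, adjusted p = 2.85e-12), and with ADAR gRNA alone it was at 713, 706, and 660 CPM (-0.13 ± 0.07, adjusted p = 0.187). IFN-α–treated cells were at 897, 977, and 878 CPM (0.07 ± 0.07, adjusted p = 0.547). The summed monocyte markers were 360 to 380 CPM in CTRL and 367 to 413 CPM in ADAR+hnRNPC-targeted libraries of day 5. The highest mean of a single marker was 130 CPM in CTRL and 85.8 CPM in ADAR+hnRNPC-targeted cells of that day. The sum thus hides a marker that was lower with joint targeting. The part of the markers in the IRF8 result was not tested.

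In all, 3 of 6 tested members rose (9.41% of all genes tested did) and 1 of 6 fell (6.22% did) in ADAR+hnRNPC-targeted cells on day 5. On day 4, 2 of 6 were called (4.71% of all genes). On day 3 none was called by edgeR, DESeq2, or limma-voom, 5 had an unadjusted p under 0.05, and 1.17% of all genes were called. From day 3 to day 5 within ADAR+hnRNPC-targeted cells, IRF7 rose by 5.14, IRF1 by 2.53, and IRF2 by 1.98 on the log2 scale (3 of 6 higher, 6.91% of all genes), and IRF8 fell by 1.04 (1 of 6 lower, 2.93% of all genes). CTRL cells over the same interval had no called member with any of these tools, 3 with an unadjusted p under 0.05, and 0.667% of all genes called.

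IRF3 and IRF5, which monocytic cells make without stimulation, had small differences. IRF3, the sensor-activated member, lay between 61.11 and 95.01 CPM in all 48 libraries, and ADAR+hnRNPC-targeted cells of day 5 (71.0, 65.6, and 62.6 CPM) overlapped CTRL cells (70.0, 63.4, and 61.1 CPM) with a log2 difference of 0.03 ± 0.07. With hnRNPC gRNA on day 3, IRF3 (42.2 to 43.6 CPM per kb) lay below CTRL cells (51.1 to 52.3), not called. On day 5, ADAR- and GFP-targeted cells (46.4 to 50.4 and 45.3 to 52.3 CPM per kb) lay above CTRL cells (38.3 to 43.9). Those with hnRNPC gRNA (41.9 to 55.3) overlapped CTRL cells, and none of these was called. IRF5 ranged from 159 to 250 CPM. Its largest difference was with hnRNPC gRNA on day 4, at 159, 160, and 169 CPM against 229, 207, and 223 CPM in CTRL cells (-0.44 ± 0.06, adjusted p = 5.21e-07), followed by day 3 (-0.40) and day 5 (-0.28), all below 2-fold and not called. In ADAR+hnRNPC-targeted cells of day 5 IRF5 was at 226, 235, and 222 CPM against 224, 210, and 199 CPM (0.11 ± 0.06).

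IRF4 stood at the edge of detection. It measured 0.158 to 0.902 CPM in all libraries of study 1 other than the ADAR+hnRNPC-targeted ones of day 5, which were at 1.18, 1.53, and 1.86 CPM (135, 191, and 245 counts). CTRL cells of day 5 were at 0.602, 0.666, and 0.503 CPM, below all 3. Without the filter on low counts, its log2 difference was 1.37 ± 0.35 on day 5 (edgeR adjusted p = 0.000456) and -1.13 ± 0.37 with hnRNPC gRNA on day 3 (adjusted p = 0.0259).

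For hnRNPC gRNA no member was called by edgeR on day 3 or day 4 (3 and 4 with an unadjusted p under 0.05, and 1.04% and 3.22% of all genes called). For ADAR gRNA none was called on day 3 or day 4 (0 and 1 with an unadjusted p under 0.05, and 0% and 0.0682% of all genes called), and for GFP gRNA none on days 3, 4, and 5 (0, 0, and 3, against 0.0227%, 0%, and 0.212%). DESeq2 and limma-voom also called no member in these comparisons. Over all genes, the comparisons with 0% called had 535 genes (ADAR gRNA, day 3) and 908 genes (GFP gRNA, day 4) with an unadjusted p under 0.05, and DESeq2 called 0 and 1 of them and limma-voom none. With the replicate number as a block, 18 genes rather than 9 were called for ADAR gRNA on day 4 and 1 rather than 0 for GFP gRNA on day 4, and again no member.

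**Figure D2:**
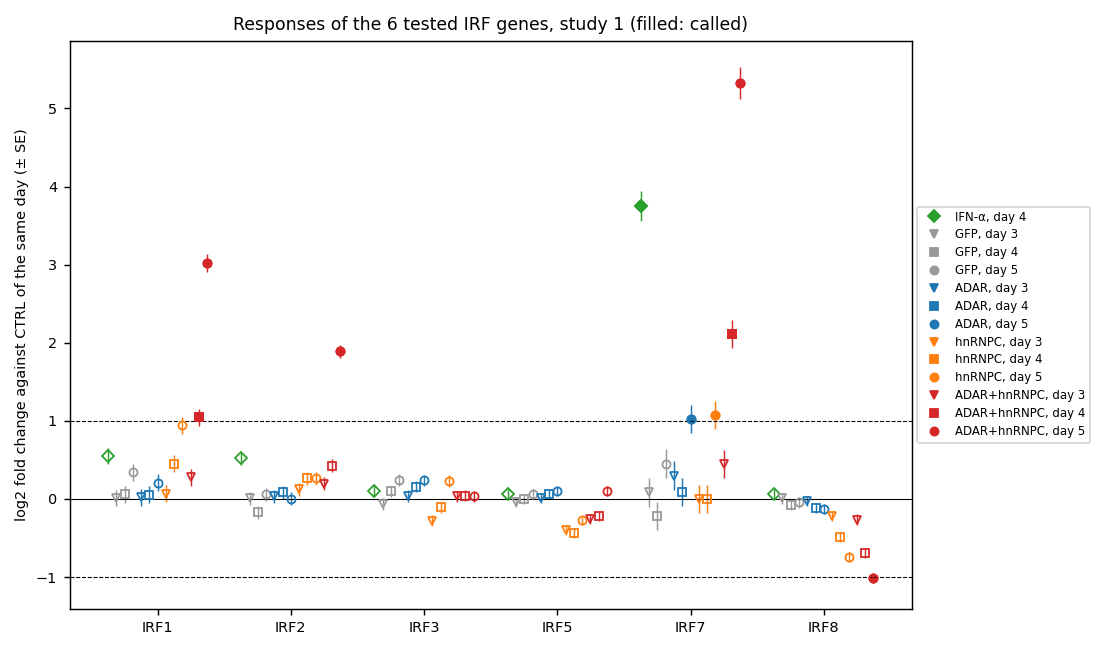
Log2 fold change (± SE) of the 6 tested IRF genes against CTRL of the same day for each gRNA and day and for IFN-α, study 1, with filled symbols for called values and dashed lines at a 2-fold change. IRF7 reaches 5.33, IRF1 3.02, and IRF2 1.89 with ADAR+hnRNPC gRNAs on day 5, and IRF8 lies at -1.01.

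Whether the joint targeting exceeded the sum of the single ones was tested by an interaction term in the 12 libraries of each day, called at an adjusted p of at most 0.05 with no minimum size. On day 5 the excess was 3.21 ± 0.26 for IRF7 (edgeR adjusted p = 2.89e-07), 1.85 ± 0.13 for IRF1 (8.26e-08), and 1.60 ± 0.12 for IRF2 (1.45e-07), all on the log2 scale. IRF3 (-0.45 ± 0.12, edgeR adjusted p = 0.00769) and IRF5 (0.26 ± 0.10, edgeR adjusted p = 0.0474) passed as well, so 5 of 6 members did, where 48.3% of all genes tested passed. IRF5 no longer passed without any 1 of 8 of the 12 libraries. The term of IRF8 was -0.15 ± 0.11 (adjusted p = 0.278), with single effects of -0.75 and -0.13 beside a joint one of -1.01. On day 4 IRF7 (2.04 ± 0.26, adjusted p = 0.00105) and IRF1 (0.55 ± 0.12, adjusted p = 0.0237) passed, 2 of 6 members against 4.03% of all genes (532 genes), and IRF1 no longer passed without any 1 of 4 libraries (0.47 to 0.54). The all-gene count was 972 without ADAR replicate 1, 229 without ADAR replicate 3, 350 and 235 without hnRNPC replicate 1 and 2, and 335 and 231 without ADAR+hnRNPC replicate 1 and 3. On day 3 no member passed with edgeR, DESeq2, or limma-voom (1 with an unadjusted p under 0.05). Of all genes 0% passed on that day with edgeR, where 1338 had an unadjusted p under 0.05 and DESeq2 passed 42.

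The response to joint targeting on day 5 and the response to IFN-α on day 4 were then compared directly, each taken against CTRL of its own day. The 2 responses differ in day as well as in agent. They differed by 2.47 ± 0.15 for IRF1, 1.58 ± 0.25 for IRF7, 1.37 ± 0.12 for IRF2, and -1.07 ± 0.09 for IRF8 on the log2 scale (edgeR adjusted p = 3.4e-16, 1.08e-06, 1.94e-12, and 2.25e-12). IRF3 (-0.07) and IRF5 (0.04) did not pass. Thus 4 of 6 members were called, against 14.6% of all genes tested.

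Other genes of the IRF pathway were read from lists of textbook roles. The lists were chosen with earlier results of these data known, so their counts are descriptions. IRF9, a member of the family that acts downstream of the type I IFN receptor, rose by 2.60 on the log2 scale after IFN-α and by 2.88 with joint targeting on day 5, and among IRF2-binding corepressors IRF2BPL rose by 1.63 in the latter alone of these 2 comparisons, so 1 of 4 and 2 of 4 of the tested genes of this group rose. Over all genes tested, 1.32% were called in either direction after IFN-α and 9.41% rose with joint targeting on day 5, and the counts of the lists stand beside these shares. Of the kinases and adaptors that activate IRF3, IRF5, and IRF7, 1 of 14 rose after IFN-α (MYD88 by 1.78) and 4 of 14 with joint targeting (MYD88 by 2.63, TICAM1 by 1.85, TBKBP1 by 1.38, AZI2 by 1.20), and the adaptor MAVS (-0.14) and the kinase TBK1 (0.09) were not called. Inhibitors of IRF activity or of type I IFN receptor signaling rose in 2 of 7 after IFN-α (USP18 by 4.87, TRIM21 by 1.08). With joint targeting 4 of 7 rose (USP18 by 6.27, ATF3 by 5.35, TRIM21 by 2.47, RBCK1 by 1.98). Among the DNA-binding partners of IRF4 and IRF8, BATF2 rose by 2.19 after IFN-α (1 of 6) and by 6.54 with joint targeting, where BATF (1.42) and BATF3 (1.16) rose as well (3 of 6), and the IRF8 partner SPI1 (PU.1) was not called (0.27). After IFN-α and with joint targeting, the median log2 fold change was 0.11 and 0.64 for the kinases and adaptors, 0.84 and 1.98 for the inhibitors, and 0.10 and 0.80 for the partners, beside 0.02 and -0.04 for all genes tested.

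Genes that IRF3 and IRF7 are known to activate rose in 7 of 7 tested after IFN-α and in 7 of 7 with joint targeting on day 5, with medians of 5.92 and 9.36 on the log2 scale. The largest with joint targeting were CXCL10 (12.72), IFIT1 (10.22), IFIT2 (9.64), and OASL (9.36). In ADAR-targeted cells of day 5 they rose in 6 of 7 (CXCL10 by 4.71, IFIT1 by 2.71) and in hnRNPC-targeted cells in 3 of 7 (IFIT2 by 2.00, IFIT1 by 1.30, OASL by 1.28), where 0.273% and 7.72% of all genes tested were called in either direction. Of the targets of IRF1, 3 of 5 rose after IFN-α and 4 of 5 with joint targeting (GBP1 by 8.06, GBP2 by 6.25, TAP1 by 2.79, CASP1 by 1.20). Of the myeloid targets of IRF8, none of 6 was called by edgeR after IFN-α (4 with an unadjusted p under 0.05) and none of 6 fell with joint targeting, where IRF8 itself fell, whereas CYBB (2.53), the membrane subunit of the phagocyte oxidase, and KLF4 (2.11), a monocyte transcription factor, rose. The medians of the IRF1 targets were 1.56 and 2.79 and those of the IRF8 targets 0.16 and 0.84 on the log2 scale. Such lists overlap in what activates them, since many IFN-stimulated genes are bound by several IRFs. The target lists were also chosen with earlier results known, so a count such as 7 of 7 is no test.

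Profiles over the 48 libraries of study 1 placed each IRF beside genes of the same course. The 2 genes with the highest Pearson correlation of log2 CPM were IFIT3 (0.987) and OAS1 (0.986) for IRF7, RHBDF2 (0.974) and BATF2 (0.962) for IRF1, CSRNP1 (0.972) and TLK2 (0.967) for IRF2, and CCR2 (0.980) and MTARC1 (0.979) for IRF8. For IRF3 they were TRMT2A (0.890) and B3GAT3 (0.873), and for IRF5 SLC27A3 (0.924) and STRN4 (0.921). Among the members, IRF1 and IRF2 correlated at 0.934, IRF2 and IRF7 at 0.887, IRF1 and IRF7 at 0.848, and IRF1 and IRF8 at -0.805. All points share the 3 ADAR+hnRNPC-targeted libraries of day 5, which lie far from the rest, and these values are descriptions of the profiles.

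Intron counts, which hold reads of unspliced RNA and of intron sequence kept in transcripts, were available for study 1. Of 60 introns in the intervals of the members, 19 passed the filter, namely 8 of IRF8, 6 of IRF5, 3 of IRF3, and 1 each of IRF1 and IRF2. In ADAR+hnRNPC-targeted cells of day 5, all 8 introns of IRF8 fell, by 1.05 to 1.41 on the log2 scale with a median of -1.19, where the median of all introns tested was -0.28 and 8.03% of them were lower. Summed over its introns, IRF8 measured 58.8, 65.7, and 58.7 CPM in these cells against 151, 137, and 142 CPM in CTRL cells. The exon counts of the gene fell by 1.01 in the same libraries. The tested introns of IRF1 (2.33) and IRF2 (2.03) rose, 2 of 19 against 5.49% of all introns tested, and the 9 introns of IRF3 and IRF5 were not called. The 6 introns of IRF5 lay between -0.89 and 0.77, 4 of them with an unadjusted p under 0.05. The highest IRF5 intron with hnRNPC gRNA alone was at 0.74, 0.79, and 0.81 on days 3, 4, and 5, not called. The median of the IRF5 introns was then -0.11, -0.16, and 0.08, while the exon counts of IRF5 were below CTRL. With hnRNPC gRNA alone on day 5, introns 1 and 2 of IRF8 fell (-1.06 and -1.05) and the other 6 were between -0.93 and -0.51, so that 2 of 19 were lower against 2.35% of all introns tested. No intron of a member was called by edgeR after IFN-α (1 of 19 with an unadjusted p under 0.05, and 0.844% of all introns called) or with joint targeting on day 4 (11 of 19, and 4.28%), where the IRF8 introns were at -0.82 to -0.50. The introns of IRF7 were below the filter. On day 4 their summed level was 2.62, 1.84, and 1.37 CPM in CTRL cells and 15.9, 12.7, and 9.23 CPM in IFN-α–treated cells. On day 5 it was 1.91, 1.49, and 1.87 CPM in CTRL cells and 23.0, 23.8, and 29.3 CPM in ADAR+hnRNPC-targeted cells.

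**Figure D3:**
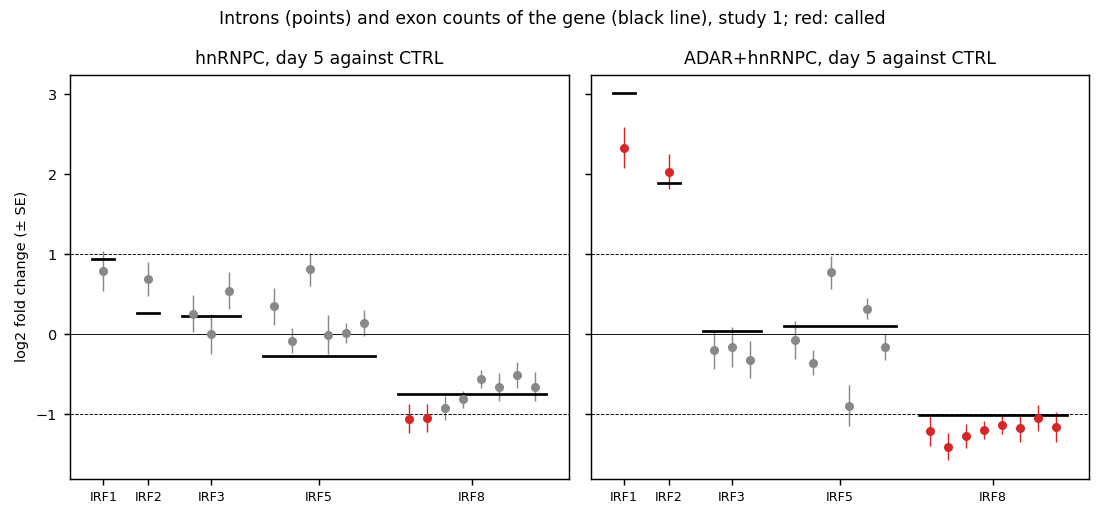
Log2 fold change (± SE) of each tested intron of 5 IRF genes (points, red where called) and of the exon counts of the same gene (black line) in hnRNPC- and ADAR+hnRNPC-targeted cells of day 5 against CTRL, study 1, with dashed lines at a 2-fold change. The 8 IRF8 introns lie between -1.41 and -1.05 with both gRNAs, close to the exon line at -1.01, and those of IRF1 and IRF2 lie at 2.33 and 2.03.

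In study 2 the cells had intact STING, other gRNAs, and 2 replicates, and day 4 alone was sampled, so its values are set beside those of study 1 without a test between them. Against 13650 genes tested, IRF7 and IRF1 were the 2 of 6 members called in total RNA of ADAR+hnRNPC-targeted cells (4.29% of all genes). IRF7 measured 94.9 and 68.1 CPM against 24.01 and 18.25 CPM in CTRL cells and rose 3.86-fold (log2 fold change 1.95 ± 0.30, edgeR adjusted p = 0.000198). IRF1 measured 95.5 and 71.1 CPM against 31.9 and 23.7 CPM and rose 2.99-fold (1.58 ± 0.19, edgeR adjusted p = 2.43e-05). Without CTRL replicate 2, the values were 1.82 for IRF7 and 1.44 for IRF1, both still called. IRF8 was at 469 and 447 CPM against 908 and 659 CPM (-0.78 ± 0.15, adjusted p = 0.00121), not called, and at -0.93 without that replicate. The summed monocyte markers were 519 to 597 CPM in CTRL and 397 to 420 CPM in ADAR+hnRNPC-targeted libraries of total RNA (1 of 6 tested fell, FCER1G by 1.05, and CD68 was at or near 0 in both), and their part in the IRF8 value was not tested. All genes called numbered 586, and 881 without CTRL replicate 2. The doubly targeted libraries of total RNA also had MALAT1 at 1817 and 2219 CPM and MT-ND1 at 68.2 and 102 CPM, above CTRL replicate 1, and the part of this in the IRF values was not tested.

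ADAR gRNA alone gave a larger IRF7 difference in study 2 than in study 1 at day 4, though the difference between the studies was not tested. In total RNA, IRF7 measured 76.8 and 51.4 CPM and rose 3.03-fold (log2 fold change 1.60 ± 0.30, edgeR adjusted p = 0.00246), 1 of 6 members called against 2.93% of all genes. IRF1, at 61.7 and 46.8 CPM, missed the fold threshold (0.96 ± 0.19, adjusted p = 0.00334). It was called at 1.19 without CTRL replicate 1 and at 1.15 without ADAR replicate 2, and was at 0.80 without CTRL replicate 2 and at 0.75 without ADAR replicate 1. IRF7 was at 1.45 without CTRL replicate 2 (edgeR adjusted p = 0.0495). The 400 genes called became 833 without CTRL replicate 1, 235 without CTRL replicate 2, and 234 without ADAR replicate 1. In study 1, IRF7 of ADAR-targeted cells on day 4 differed by 0.08 ± 0.18. ADAR mRNA was at 564 and 448 CPM with the ADAR gRNA of study 2 against 858 and 869 CPM in CTRL cells. With hnRNPC gRNA alone, IRF7 was at 34.2 and 24.8 CPM (0.48 ± 0.29, adjusted p = 0.344), and no member was called by edgeR, DESeq2, or limma-voom (1 with an unadjusted p under 0.05, and 0.733% of all genes called). Without CTRL replicate 2 IRF7 was at 0.32 and again no member was called by edgeR. The 100 genes called with hnRNPC gRNA became 428 without CTRL replicate 1, 47 without CTRL replicate 2, and 20 without hnRNPC replicate 2.

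The cytosolic fraction gave the same 2 genes. With ADAR+hnRNPC gRNAs, cytosolic IRF7 was at 122 and 73.5 CPM against 19.1 and 17.2 CPM in CTRL cells (log2 fold change 2.43 ± 0.30, edgeR adjusted p = 1.3e-05), and IRF1 was at 115 and 93.7 CPM against 33.7 and 25.6 CPM (1.81 ± 0.19, edgeR adjusted p = 2.19e-06). These were 2 of 6 members against 7.90% of all genes. IRF2, at 49.5 and 41.1 CPM against 27.1 and 21.7 CPM, stayed under 2-fold (0.89 ± 0.16, adjusted p = 0.000379), and it was called without CTRL replicate 1 (1.06) and without ADAR+hnRNPC replicate 2 (1.02). With ADAR gRNA, IRF7 rose in the cytosol (1.60 ± 0.30, edgeR adjusted p = 0.000904, 1 of 6 members against 4.95% of all genes), and with hnRNPC gRNA no member was called by any of the 3 tools (1 with an unadjusted p under 0.05, and 0.484% of all genes called, 66 genes, which became 14 without CTRL replicate 1). The difference between the cytosolic and the total response to joint targeting was 0.49 ± 0.41 for IRF7 and 0.23 ± 0.26 for IRF1, and no member was called (none with an unadjusted p under 0.05, and 2.59% of all genes called). Without replicate 2 of CTRL total RNA these differences were 0.66 for IRF7 and 0.42 for IRF1, no member was called, and the 353 genes called became 789.

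No IRF mRNA was called between compartments. Over the 4 gRNA groups, the largest of the log2 differences between cytosolic and total RNA was 0.34 ± 0.08 for IRF2 (0 of 6 members called by edgeR and 4 with an unadjusted p under 0.05, against 8.89% of all genes called), and it was 0.27 without replicate 2 of CTRL total RNA. In hnRNPC-targeted cells, the cytosolic fraction was above the nuclear/mitochondria-enriched one by 0.68 ± 0.15 for IRF5, 0.66 ± 0.16 for IRF2, 0.66 ± 0.15 for IRF8, and 0.37 ± 0.12 for IRF3, while IRF1 was at 0.00 ± 0.19 and IRF7 at 0.26 ± 0.29 (0 of 6 called, 4 with an unadjusted p under 0.05, against 30.5% of all genes called). DESeq2 and limma-voom called none either. Each fraction is scaled to its own RNA, so these are shares of a fraction and not amounts per cell.

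**Figure D4:**
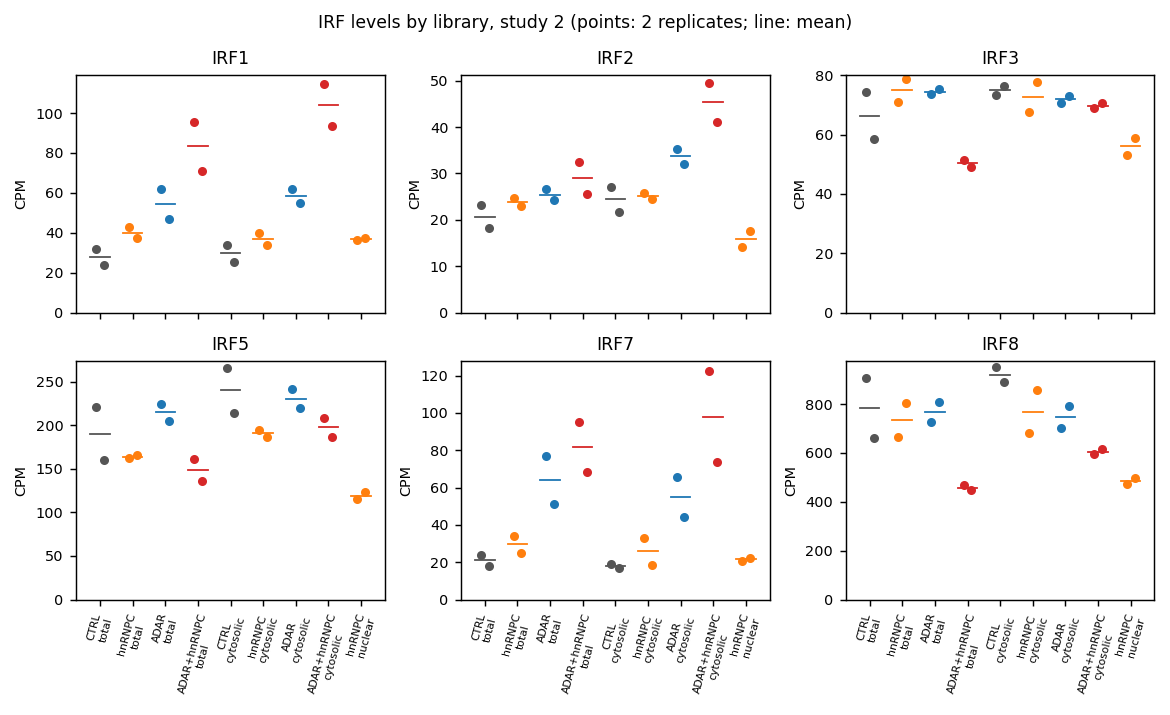
Level of the 6 tested IRF genes in each of the 18 libraries of study 2 (CPM, axes from 0), by gRNA and RNA fraction, with points for the 2 replicates and a line at their mean. IRF7 and IRF1 are highest with ADAR+hnRNPC gRNAs in total and cytosolic RNA, and IRF8 of total RNA is lowest there at 447 and 469 CPM.

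The transcripts of the members were also read for features that the choice of the family did not use. On GRCh37, IRF1 lies at chr5:131817301-131826465 (minus strand), IRF7 at chr11:612555-615950 (minus strand), IRF2 at chr4:185308883-185395704 (minus strand), and IRF8 at chr16:85932768-85956212 (plus strand). IRF1 shares 580 exonic bases (16.3% of its spliced length) with the antisense gene IRF1-AS1, and IRF3 shares 227 (14.2%) with BCL2L12 on the other strand, and the strand setting of the counting is not given in the sources used here, so reads in these stretches cannot be told apart. The canonical transcripts of the other 5 members share no exonic base with another gene. The authors counted over the exons of each gene, so overlaps outside the canonical transcripts were not checked. No editing cluster region of the deposited tables overlapped a member in either study. Single A-to-I editing sites were listed in 3 members, with 18 in IRF1 (13 in the 3′UTR), 21 in IRF3, and 22 in IRF5 (all intronic) in study 1. Editing at them was low. Pooled over the 9 CTRL libraries, 11 of 2598 reads at IRF1 sites were edited (0.423%, 95% Wilson interval 0.237 to 0.757%). In the 9 ADAR-targeted libraries it was 4 of 2467 (0.162%, 0.0631 to 0.416%). GFP-targeted cells had 2 of 2244 (0.0891%, 0.0244 to 0.324%), a lower share than with the ADAR gRNA. For IRF5 it was 5 of 3289 (0.152%) in CTRL against 7 of 2951 (0.237%) in ADAR-targeted libraries. IRF3 had 0 of 2678 reads edited in CTRL libraries, which allows a share of up to 0.112% by the limit of 3 reads and up to 0.143% by the Wilson interval. Between CTRL and ADAR-targeted cells the intervals overlapped for each of the 3 genes. Overlap of intervals is no test of a difference, and none was run. The intervals of hnRNPC-targeted cells with and without the ADAR gRNA did not overlap for IRF5 and IRF3. By the study's methods, a site had to reach a minimum editing frequency in at least 1 ADAR wild-type sample. A later step required a minimum in all samples of at least 1 treatment. Pooled over sites, the highest share here was 0.885%, below the minimum set for a single site. Whether the sites listed here are the study's final selection is not clear. A lower share with the ADAR gRNA, or a higher one in the libraries that listed a site, can follow from the choice of sites. No conclusion is therefore drawn from the gap. In hnRNPC-targeted cells 22 of 3939 reads at IRF5 sites were edited (0.559%, 0.369 to 0.844%), with 1 or more in each of the 9 libraries, against 1 of 2879 (0.0347%, 0.00613 to 0.196%) in ADAR+hnRNPC-targeted cells. The interval of hnRNPC-targeted cells lay above that of CTRL cells (0.0650 to 0.355%), as did that of IFN-α–treated cells (7 of 935 reads, 0.363 to 1.54%). Both overlapped that of GFP-targeted cells (13 of 2970 reads, 0.438%, 0.256 to 0.747%), so neither group stood apart from both controls. At IRF3 sites 22 of 2550 reads (0.863%, 0.570 to 1.30%) were edited in hnRNPC-targeted and 2 of 1973 (0.101%, 0.0278 to 0.369%) in ADAR+hnRNPC-targeted cells, but 16 of the 22 came from hnRNPC replicate 2 of day 5 and the others from 2 libraries of day 4. In study 2 the intervals of all gRNA groups overlapped for IRF1 and IRF5. Intervals pool libraries and cover counting error only, and these groups were not tested across libraries.

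Promoter sequence, taken from RefSeq on GRCh38.p14 as 250 bases before to 50 bases after each start, was at hand for 4 members (1 start for IRF1 and IRF4, 4 for IRF5, and 2 for IRF8). They were searched on both strands for the core of the IFN-stimulated response element (GAAANNGAAA), the IFN-γ–activated site known as GAS (TTCNNNGAA), the composite site of ETS factors with IRFs known as EICE (GGAANNGAAA), and the κB site. IRF1, which rose with joint targeting, held a GAS 124 bases before its start (chr5:132490878-132490907, minus strand) and a κB site 50 bases before it (chr5:132490804-132490833), and IRF5 held an EICE 33 bases before a start (chr7:128940627-128940656, printed as the plus strand). The EICE letters lie on the minus strand, so the capitals show their reverse complement. The matches did not overlap one another, and no other match was found in these windows. The windows of 30 bases are shown with the match in capitals.
IRF1, GAS: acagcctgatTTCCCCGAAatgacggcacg
IRF1, κB: ggccagggctGGGGAATCCCgctaagtgtt
IRF5, EICE: gtctagccacTTTCGTTTCCcctggggccg
A GAS is present in 7.66%, a κB site in 11.3%, an EICE in 2.82%, and the response element core in 3.57% of 35116 promoters of this length, and a match describes the letters of the window alone.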

How the data were processed

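Gene counts were deposited for 66 libraries of Cas9-transgenic THP-1 cells (48 in study 1 and 18 in study 2). As the labels and the study's methods state, libraries were stranded total RNA depleted of ribosomal RNA, and the authors aligned reads with STAR (2.5.4a) to GRCh37, kept uniquely mapped reads, and counted them over the exons of each gene. The authors also deposited counts over introns (study 1), over editing cluster regions, and of edited and all reads at single A-to-I sites, all without normalization. The strand setting of the counting is not given in the sources used here. Labels gave the group of each library, and 0 columns had no sample. The replicates are described by the study as independent experiments.

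Members were found by Ensembl identifier. They and the gene lists were chosen with earlier results of these data known. A gene of the lists is not reported here and was left out of their counts and medians. Of each list, at most the 4 called genes with the largest absolute log2 fold change were named, beside IRF pathway genes of known role that were not called and were picked after their values were seen (MAVS, TBK1, SPI1). Genes with an average log2 CPM of at least 0.5 (introns 1) were tested with edgeR 4.0.16 in R 4.3.3 (quasi-likelihood, TMM scaling, 1 model per study, and the 12 libraries of the day for interactions), with Benjamini-Hochberg adjustment over all features tested. Alternatives were size factors of DESeq2 1.42.0 and its test, limma-voom (3.58.1), no filter, a replicate block, the compared groups alone, GFP-targeted controls, other intron library sizes, and leaving out each library. Shares of reads have Wilson intervals. Libraries of a group were no duplicates (smallest chi-square per gene 12.1 in study 1 and 13.1 in study 2).

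The reported tests were unpaired, with no term for the replicate number, and the replicate block was run only as an alternative. Numbers of replicates were taken to pair libraries where the deviations of all 3 same-numbered pairs from their group means correlated above 0.1. This held for ADAR+hnRNPC on days 3 and 4 (0.46 to 0.75 and 0.37 to 0.53), ADAR on days 4 and 5 (0.33 to 0.61 and 0.25 to 0.46), hnRNPC on days 4 and 5 (0.12 to 0.39 and 0.27 to 0.37), and GFP on days 4 and 5 (0.13 to 0.40 and 0.21 to 0.43), each against CTRL. It did not hold for the other comparisons of study 1, and study 2 has 2 numbers only.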

Additional observations from a re-analysis of the deposited data

Results flagged for a closer look

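Effects of 1 targeting that differed with and without the other targeting were found for 5 members, by the interaction terms tested with edgeR over all genes. Of all genes tested, 48.3% passed on day 5 and 4.03% on day 4, so passing on day 5 is not particular to the members. On day 5 the term was 3.21 ± 0.26 SE for IRF7 (edgeR adjusted p = 2.89e-07), 1.85 ± 0.13 for IRF1 (8.26e-08), and 1.60 ± 0.12 for IRF2 (1.45e-07) on the log2 scale, so that the difference with both gRNAs was larger than the sum of the differences with each. IRF5 had a term of 0.26 ± 0.10 (0.0474), which was lost when some single libraries were left out. IRF3 had a term of -0.45 ± 0.12 (0.00769), with single effects of 0.24 (ADAR) and 0.23 (hnRNPC) beside a joint one of 0.03. GFP gRNA gave 0.24 for IRF3 on that day. On day 4 the term was 2.04 ± 0.26 for IRF7 (0.00105) and 0.55 ± 0.12 for IRF1 (0.0237).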

How the results depend on the processing

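Of 2130 recomputed values of the 6 tested members, 2094 kept their call, 29 lost it, 7 gained it, and 0 turned in direction, and 444 of 467 counts of called members or introns lay within 1.5 times the reported one. Without the filter on low counts IRF4 was called with joint targeting on day 5 (1.37), from day 3 to day 5 (2.13), and in the day 5 interaction (2.40), and with hnRNPC gRNA on day 3 (-1.13), the 1 member called there in place of 0. IRF5 then lost its day 5 interaction (adjusted p = 0.0761). With GFP-targeted cells as the control, 1 member rather than 2 was called with joint targeting on day 4, and 0 rather than 1 with hnRNPC or ADAR gRNA on day 5. DESeq2 moved IRF8 below 2-fold on day 5 (-0.96) and from day 3 to day 5 (-0.98). In each case the cause was not tested.

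Leaving out 1 library at a time gave 1 to 2 called members for joint targeting on day 4, 0 to 1 for ADAR and for hnRNPC gRNA on day 5, 1 to 2 for the day 4 interaction, and 1 to 2 for ADAR gRNA in total and in cytosolic RNA of study 2. The IRF1 interaction of day 4 was lost without hnRNPC replicate 2, ADAR replicate 3, or ADAR+hnRNPC replicate 1 or 3 (adjusted p = 0.0536 to 0.0715). The IRF5 interaction of day 5 was lost without CTRL replicate 1 or 2, hnRNPC replicate 2 or 3, ADAR replicate 1 or 2, or ADAR+hnRNPC replicate 1 or 2 (adjusted p = 0.0632 to 0.105). IRF8 from day 3 to day 5 was at -0.99 without ADAR+hnRNPC replicate 3 of day 5. In cytosolic RNA of study 2, IRF1 was called with ADAR gRNA without CTRL replicate 1 (1.18) or ADAR replicate 2 (1.06). Leaving out libraries in the intron fit, chosen after seeing the data, gave 0 to 1 called introns after IFN-α and with joint targeting on day 4 (1 without CTRL replicate 1) and 1 to 2 with hnRNPC gRNA on day 5 (1 without CTRL replicate 1 or hnRNPC replicate 3).

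The replicate block, also run on introns after seeing the data, changed 1 call of a member, the day 4 interaction of IRF5 (0.16, adjusted p = 0.0344 with the block). Over all genes it moved the day 4 interaction from 532 to 3192 calls and the day 3 interaction from 0 to 8, where DESeq2 gave 1717 and 42 and the fit of all 48 libraries gave 1463 for day 4. Without the filter the all-gene counts grew in study 1, for example from 2062 to 5302 with joint targeting on day 5 and from 174 to 471 after IFN-α. Leaving out 1 library moved the counts over all genes by over 1.5 times where few genes were called, from 9 to between 2 and 5 for ADAR gRNA on day 4 (without CTRL replicate 1 or 2 or ADAR replicate 2 or 3), from 36 to 61 for ADAR gRNA on day 5 (without CTRL replicate 3), and from 28 to 6 (without CTRL replicate 2 or GFP replicate 3) or 49 (without GFP replicate 2) for GFP gRNA on day 5.

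With 3 or 2 replicates a group, calls near a 2-fold difference (IRF8 and IRF1 with joint targeting, IRF7 with single targeting) turn on single libraries. IRF4 was tested only without the filter on low counts, and the introns of IRF7 were not tested. Study 1 and study 2 differ in STING, gRNAs, and replicates, and these cannot be told apart. Edited and unedited cells were sequenced together, and ADAR mRNA gives no check of the ADAR gRNA in study 1.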
